A study of Mus musculus with 12 samples.

Results

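This report describes 32 mouse genes of protein folding in the endoplasmic reticulum (ER) and of the unfolded protein response, taken by name from the 53465 gene rows of a read count table. The 32 names were a list of chaperones, disulfide enzymes, degradation factors, stress sensors and translocon subunits, chosen with earlier results of these data known. Each matched exactly 1 Ensembl identifier. RNA was measured in 12 libraries of hematopoietic stem cells sorted from mouse bone marrow and then grown for 2 days. The 4 groups, with 3 samples each, were LT-HSCs grown with 1 mM nicotinamide riboside (NR), control LT-HSCs without it, ST-HSCs with 1 mM NR, and control ST-HSCs. LT-HSCs (long-term) were the CD34- and ST-HSCs (short-term) the CD34+ cells of the Lin- ckit+ sca1+ CD150+ CD48- gate. All groups were kept in Stemline II medium with SCF at 100 ng/ml and Flt3 at 2 ng/ml, and NR, a precursor of the coenzyme NAD, was added again after 24 h. The labels name no mouse strain, age or genotype and do not say whether the 3 samples of a group came from different animals or cultures. A p-value here is set against the spread between samples within groups, estimated over all 4 groups together, and that spread may therefore be technical.

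Proteins bound for the membrane or for secretion enter the ER through the Sec61 translocon and fold there with the help of the HSP70 chaperone BiP, encoded by Hspa5, the HSP90 chaperone encoded by Hsp90b1, lectin chaperones that hold glycoproteins, and enzymes that form disulfide bonds. When unfolded proteins accumulate, the membrane sensors IRE1 (encoded by Ern1), ATF6 and PERK (encoded by Eif2ak3) signal to the nucleus. ATF6 and the spliced form of XBP1 then raise the transcription of chaperone and degradation genes, whereas PERK slows translation and raises ATF4. In the bone marrow, hematopoietic stem cells are known for a low rate of protein synthesis and for a strong response to ER stress.

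The levels below are counts per M gene counts of the library (CPM), scaled between libraries by the trimmed mean of M values (TMM). Changes are log2 ratios from edgeR's quasi-likelihood fit of all 12 libraries, given with their standard error (SE). A gene was called when its Benjamini-Hochberg adjusted p over the 19830 genes tested was under 0.05. Libraries held 24.6 to 35.5 M gene counts, and all 32 genes passed the filter on low counts, 31 of them with a mean of at least 5 CPM. In bulk RNA, fewer cells of a type and less RNA per cell cannot be told apart. Reads that fell in no annotated gene made up 28.5% of reads in sample 3 of the NR LT-HSCs and 26.2% in sample 3 of the NR ST-HSCs, against at most 17.0% in the other libraries, so the counts of called genes are also given without these 2 libraries. The 9 HSC markers summed to 2363 to 2987 CPM, of which Kit alone made up 1343 to 1715 CPM. Plasma and B cells are cells in which this pathway is known to be very active. Their markers summed to 7.56 to 16.6 CPM, with Jchain, Igkc, Tnfrsf17 and Cd79a at or near 0. Of 5 megakaryocyte markers tested, 4 fell with NR in the averaged comparison. Their summed level was 1574 to 2191 CPM in NR LT-HSCs, against 2432 to 2769 CPM in control LT-HSCs, and 1631 to 2136 CPM in NR ST-HSCs, against 2677 to 2948 CPM in control ST-HSCs. In the other marker lists, Epor fell among 4 erythroid genes tested, Nkg7 fell among 2 of T and NK cells, Ighm fell among 5 of plasma and B cells and Cd68 rose among 6 of monocytes. By edgeR 0 were called among 7 neutrophil, 5 mast cell and 5 stromal markers (1 mast cell gene at an unadjusted p under 0.05), while 2 of 9 HSC markers rose and 1 fell. The part of these markers in the results was not tested.

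The ER stress response element (ERSE) is the promoter motif through which ATF6, with the CCAAT-binding factor NF-Y, is known to act on chaperone genes. Its letters are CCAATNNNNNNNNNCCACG, and a shorter form, ERSE-II, reads ATTGGNCCACG, in which ATTGG is CCAAT read on the other strand. RefSeq windows of build GRCm38.p6, from 250 bases before to 50 after the start of transcription, were found for 26 of the 32 genes and searched on both strands for exact matches. An ERSE stood in the windows of 9 of these 26 genes, against 0.119% of all 32851 windows. ERSE-II stood in those of Herpud1 and Dnajb11, against 0.0365% of all windows. The site recognised by XBP1 and ATF6 alone (TGACGTGG, whose CGTGG also ends an ERSE on the other strand) was in 0 of the 26, against 0.676% of all windows. The bases of Hspa5 upstream of its RefSeq start, chr2:34771840-34772089 on the plus strand, show the site in place, with the constant ends of the ERSE in capitals. A GENCODE M21 transcript of the gene starts inside this stretch, at base 34771970.
Hspa5 promoter: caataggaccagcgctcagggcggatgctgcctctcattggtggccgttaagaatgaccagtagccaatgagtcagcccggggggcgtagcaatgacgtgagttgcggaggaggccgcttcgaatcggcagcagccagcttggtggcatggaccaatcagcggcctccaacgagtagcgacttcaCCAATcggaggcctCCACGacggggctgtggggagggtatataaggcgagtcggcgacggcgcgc

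The matched sites are shown with 5 bases on each side, on the strand of the gene and with the constant ends of the motif in capitals, because exact matches are rare among all windows and stand in 11 of the 26 searched here. Several of the genes below, Sdf2l1, P4hb, Pdia3 and Pdia4 among them, hold none. A site that begins with CGTGG is an ERSE on the other strand.
Hspa5, chr2:34772020-34772048: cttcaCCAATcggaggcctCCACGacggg
Hsp90b1, chr10:86705633-86705661: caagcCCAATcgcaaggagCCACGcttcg
Hsp90b1, chr10:86705528-86705556: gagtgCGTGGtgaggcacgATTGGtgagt
Calr, chr8:84847070-84847098: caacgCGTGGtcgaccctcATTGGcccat
Canx, chr11:50325795-50325823: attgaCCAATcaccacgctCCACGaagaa
Pdia6, chr12:17266486-17266514: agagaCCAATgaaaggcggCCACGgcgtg
Creld2, chr15:88819515-88819543: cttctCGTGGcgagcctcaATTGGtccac
Dnajc3, chr14:118937822-118937850: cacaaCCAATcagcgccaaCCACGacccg
Syvn1, chr19:6046527-6046555: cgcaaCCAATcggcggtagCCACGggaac
Derl3, chr10:75893237-75893265: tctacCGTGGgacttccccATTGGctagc
Herpud1, ERSE-II, chr8:94386372-94386392: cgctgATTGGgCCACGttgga
Dnajb11, ERSE-II, chr16:22857847-22857867: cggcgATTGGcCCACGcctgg
The Hspa5 match ran from base -65 to -47 before the start of transcription, and the Syvn1 match, at -44 to -26, was the ERSE closest to it. The match in Dnajb11 lay after the start, at bases 8 to 18.

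The study asked how NR acts on cultured LT-HSCs and ST-HSCs. With NR, all 3 HSP70 and HSP90 chaperones, both lectin chaperones, 4 of 5 disulfide genes, 2 of 5 cochaperones and all 4 entry pore and signal peptidase genes fell in the average over both cell types. The 3 sensor and transcription factor genes and 6 of 8 degradation genes did not pass the test. In all, 18 of the 32 genes fell and 1 rose, against 16.1% lower and 7.88% higher among all genes tested. The list was chosen with earlier results of these data known, so these shares describe it and do not test it. The median change was -0.28 over the 32 genes and 0.03 over all genes. Among the 10475 genes with a mean of at least 5 CPM, as 31 of the 32 have, the median was -0.07. Of these abundant genes 28.6% were lower and 12.7% higher. In LT-HSCs alone 15 of 32 genes fell, against 7.58% of all genes and 13.995% of the abundant ones. There 1 rose, against 2.38% and 4.21%. In ST-HSCs 15 of 32 fell, against 11.1% and 19.96%, and 1 rose, against 5.82% and 9.60%. Of these, 14 were lower in both cell types, Creld2 passed the test in LT-HSCs and not in ST-HSCs, and Hyou1 the reverse. For neither was the difference between the cell types called (adjusted p = 1).

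The 32 genes together held 6868, 7076 and 6193 CPM in NR LT-HSCs, against 8232, 8641 and 8057 CPM in control LT-HSCs. Their sum was 6836, 7222 and 6661 CPM in NR ST-HSCs, against 8740, 8443 and 8662 CPM in control ST-HSCs. Every NR library was below every control library in this sum. In LT-HSCs the samples of 17 genes were all lower with NR than in control culture, where 15.9% of all genes were, and in ST-HSCs those of 20 genes, where 20.9% were. Only Edem2 was all higher, in LT-HSCs (8.57% of all genes were) and in ST-HSCs (11.9%). Without the 2 libraries rich in unannotated reads (sample 3 of the NR LT-HSCs and of the NR ST-HSCs), 10 genes were called lower in LT-HSCs, 11 in ST-HSCs and 15 on average, the averaged calls lost being Creld2, Dnajb11 and Pdia4. Without NR ST-HSC sample 3 alone, 9 were called lower in ST-HSCs. Calr, Herpud1, Hsp90b1, Hspa5, Pdia6, Sdf2l1 and Sec61b were called lower in both cell types with every one of the 19 alternative settings, and 16 of the 19 averaged calls also stood with every one. Relative log expression factors in place of TMM left 18 genes lower in the averaged comparison, while over all genes they gave 2216 higher and 2351 lower calls, against 1563 higher and 3189 lower with TMM.

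**Figure D1:**
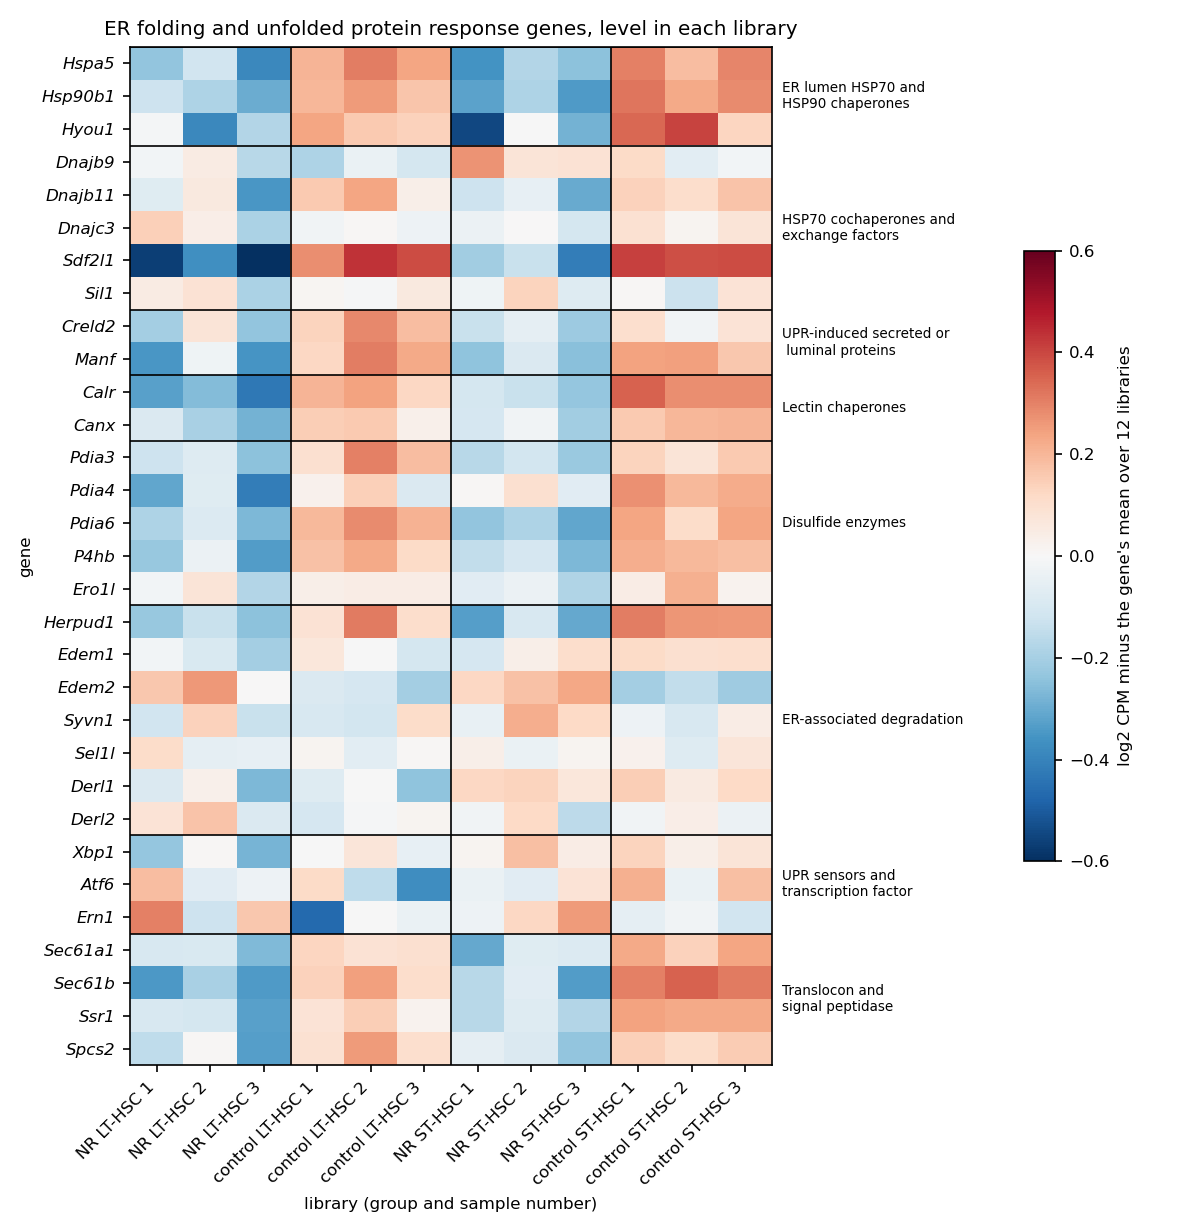
Level of 31 of the 32 genes in each of the 12 libraries (columns, by group and sample number), as log2 CPM minus the gene's mean over all libraries (blue lower, red higher); Derl3, with 1 to 33 counts per library, is left out. The NR columns are mostly blue and the control columns mostly red in the chaperone, lectin, disulfide enzyme and translocon rows, and Edem2 shows the opposite colours.

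Hspa5, Hsp90b1 and Hyou1, the HSP70 and HSP90 chaperones of the ER lumen, all fell. Hspa5 (ENSMUSG00000026864) had 532, 578 and 479.7 CPM in NR LT-HSCs, against 721, 774 and 737 CPM in control LT-HSCs, and 488, 555 and 529 CPM in NR ST-HSCs, against 772, 711 and 767 CPM in control ST-HSCs. The groups did not overlap in either cell type. Its log2 change was -0.49 ± 0.07 in LT-HSCs and -0.52 ± 0.07 in ST-HSCs, and the averaged change of -0.50 ± 0.05 (SE, adjusted p = 1.5e-05) put it at 70.6% of the control level. Hsp90b1, encoding GRP94, had 414, 396 and 366 CPM in NR LT-HSCs, against 517, 538 and 506 CPM in control LT-HSCs. It had 361, 396 and 355 CPM in NR ST-HSCs, against 562, 527 and 548 CPM in control ST-HSCs. Again the groups were apart in both cell types, and the averaged change was -0.48 ± 0.04 (adjusted p = 6.4e-06). Hyou1, a large HSP70 relative that exchanges the nucleotide of BiP, was less precise, with an averaged change of -0.46 ± 0.09 (adjusted p = 0.0026).

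Among the 5 cochaperones and exchange factors, Sdf2l1 and Dnajb11 fell and the other 3 did not pass the test. Sdf2l1, a lumenal partner of the J-protein encoded by Dnajb11, had the smallest p of the 32 genes. It had 38.5, 44.2 and 37.3 CPM in NR LT-HSCs, against 69.2, 77.0 and 74.8 CPM in control LT-HSCs, and 49.3, 52.0 and 42.8 CPM in NR ST-HSCs, against 75.6, 74.5 and 74.6 CPM in control ST-HSCs. The highest NR sample was well below the lowest control sample in each cell type. Its change was -0.88 ± 0.09 in LT-HSCs and -0.64 ± 0.09 in ST-HSCs, and the averaged -0.76 ± 0.06 (adjusted p = 3.3e-06) corresponded to 59.1% of the control level. Dnajb11 changed by -0.27 ± 0.07 averaged over both (adjusted p = 0.01). The J-proteins Dnajb9 (0.10 ± 0.07) and Dnajc3 (-0.04 ± 0.05) and the exchange factor Sil1 (0.00 ± 0.06) gave averaged changes within 2 SE of 0. Creld2 and Manf, small proteins that ER stress is known to induce, both fell, by 0.25 ± 0.06 (adjusted p = 0.0096) and 0.43 ± 0.07 (adjusted p = 0.00034) on the log2 scale. The calls of Creld2 and Dnajb11 were lost without NR ST-HSC sample 3, with changes of -0.19 (adjusted p = 0.056 and 0.066), and that of Creld2 also without NR LT-HSC sample 1 (-0.20, adjusted p = 0.054).

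Both lectin chaperones fell. Calr, the soluble calcium-binding lectin, had 635, 665 and 590.5 CPM in NR LT-HSCs, against 916, 941 and 867 CPM in control LT-HSCs. In ST-HSCs it had 739.96, 726 and 678 CPM with NR, against 1018, 967 and 964 CPM in control culture. All 6 NR libraries were below all 6 control libraries. The averaged change was -0.49 ± 0.04 (adjusted p = 3.5e-06), or 71.1% of the control level. Canx, its membrane-bound relative, changed by -0.30 ± 0.04 (adjusted p = 0.0003).

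Of the 5 disulfide genes, 4 fell, namely the isomerases Pdia3, Pdia4, Pdia6 and P4hb. Pdia6 had 306, 329 and 289 CPM in NR LT-HSCs, against 399, 423 and 403 CPM in control LT-HSCs, and 296, 306 and 280.3 CPM in NR ST-HSCs, against 411, 376 and 409.7 CPM in control ST-HSCs. P4hb, the founding member of the family, had 534, 611 and 496 CPM in NR LT-HSCs, against 707, 731 and 677 CPM in control LT-HSCs, and 565, 583 and 519 CPM in NR ST-HSCs, against 727, 716 and 709 CPM in control ST-HSCs. For both genes the groups were apart in each cell type. The averaged change was -0.42 ± 0.04 for Pdia6 (adjusted p = 1.9e-05) and -0.37 ± 0.05 for P4hb (adjusted p = 0.00017). Pdia3, which works with the lectin chaperones, changed by -0.32 ± 0.04 (adjusted p = 0.00019). Pdia4 changed by -0.25 ± 0.06 (adjusted p = 0.009), a call that was lost without NR LT-HSC sample 1 (adjusted p = 0.051) and without NR ST-HSC sample 3 (adjusted p = 0.059). The oxidase gene Ero1l, which reloads the isomerases, gave -0.13 ± 0.06 (adjusted p = 0.13).

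**Figure D2:**
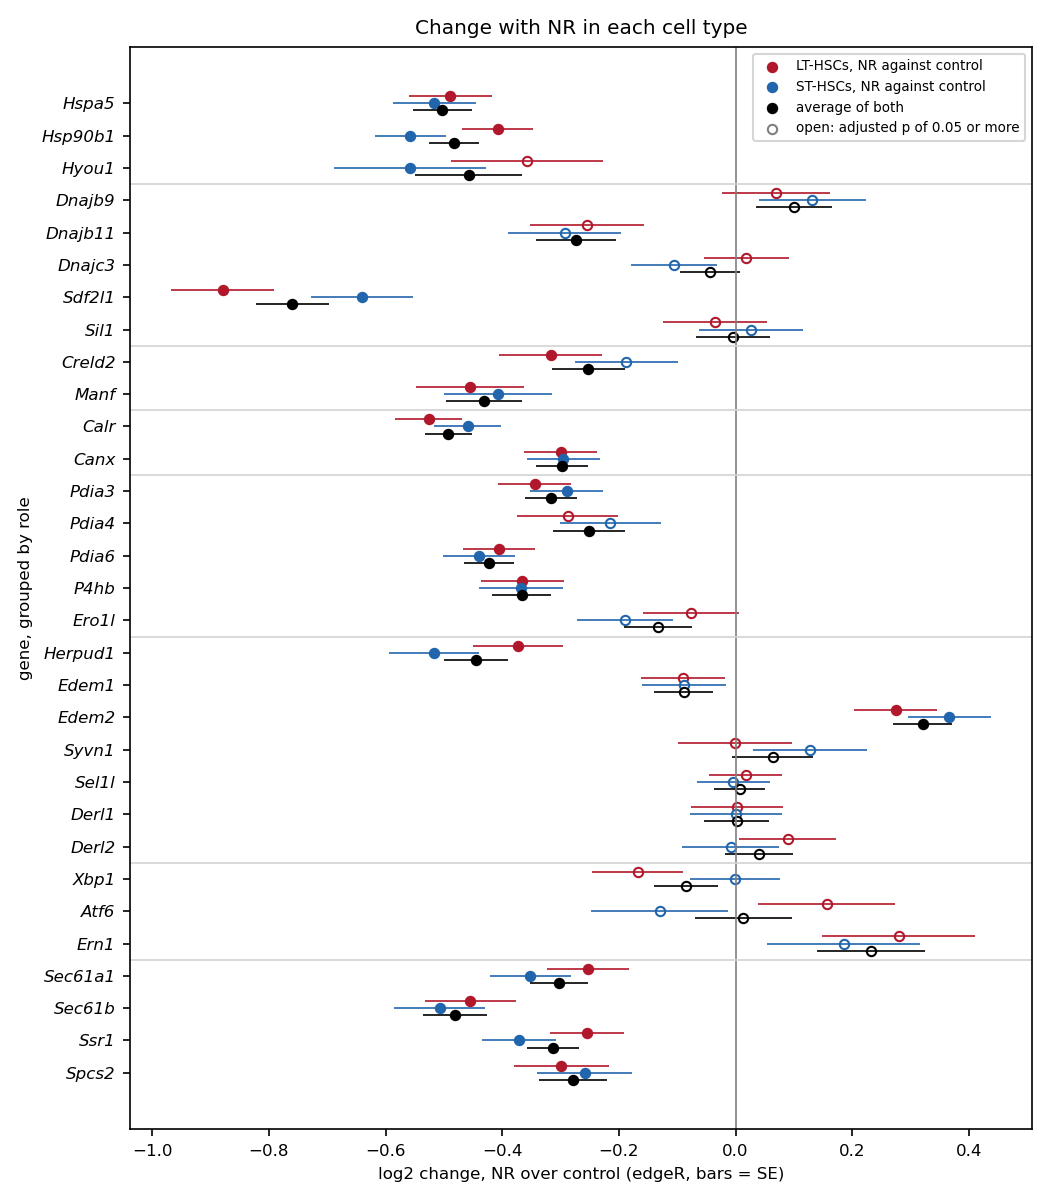
Log2 change with NR over control for 31 genes (rows, grouped by role; Derl3 is left out) in LT-HSCs (red), ST-HSCs (blue) and averaged over both (black), with the SE as bars; filled points have an adjusted p under 0.05. The filled points lie left of 0 except for Edem2, at 0.27 in LT-HSCs and 0.37 in ST-HSCs.

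The 8 genes of ER-associated degradation, which sends misfolded proteins to the proteasome, were split. Herpud1, an adaptor of the ubiquitin ligase complex, fell, Edem2 rose, and the other 6 did not pass the test. Herpud1 had 154, 164 and 152 CPM in NR LT-HSCs, against 192, 224 and 194 CPM in control LT-HSCs. In ST-HSCs its level was 143, 169 and 146 CPM with NR, against 223, 217 and 216 CPM in control culture. The groups did not overlap, and the averaged change was -0.44 ± 0.05 (adjusted p = 7e-05). Edem2, which in human cells starts the mannose trimming that marks glycoproteins for degradation, is the only one of the 32 genes called higher and was chosen for its values. It had 122, 131 and 109 CPM in NR LT-HSCs, against 103, 102 and 94.7 CPM in control LT-HSCs, and 119, 123 and 128 CPM in NR ST-HSCs, against 94.6, 98.6 and 94.1 CPM in control ST-HSCs. Every NR sample was above every control sample. The averaged change was 0.32 ± 0.05 (adjusted p = 0.00045). In LT-HSCs the change of 0.27 ± 0.07 (adjusted p = 0.027) lost its call without NR LT-HSC sample 1 or 2 or any of the control LT-HSC samples, with adjusted p-values of 0.055 to 0.11.

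Edem1, a relative of Edem2, gave an averaged change of -0.09 ± 0.05. The ubiquitin ligase gene Syvn1 gave 0.06 ± 0.07 and that of its partner, Sel1l, 0.01 ± 0.04. The derlins, membrane proteins of the export channel, gave 0.00 ± 0.06 for Derl1 and 0.04 ± 0.06 for Derl2. Derl3 had 14, 1 and 7 counts in NR LT-HSCs, against 22, 21 and 20 in control LT-HSCs, and 14, 26 and 9 in NR ST-HSCs, against 33, 8 and 26 in control ST-HSCs. At this depth its change of -1.03 ± 0.56 (adjusted p = 0.24) could not be told from 0.

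In the main edgeR fit, none of the sensor genes Atf6 and Ern1 and the transcription factor gene Xbp1 was called with NR. This held in each cell type and on average. Atf6 had 67.5, 56.7 and 58.1 CPM in NR LT-HSCs, against 64.4, 53.4 and 45.9 CPM in control LT-HSCs, and 57.7, 56.6 and 62.9 CPM in NR ST-HSCs, against 68.9, 57.9 and 67.2 CPM in control ST-HSCs. The groups overlapped in both cell types, and the averaged change was 0.01 ± 0.08. Ern1 had 68.7, 51.1 and 62.4 CPM in NR LT-HSCs, against 40.4, 55.7 and 54.2 CPM in control LT-HSCs, and 54.6, 60.8 and 66.6 CPM in NR ST-HSCs, against 53.6, 54.9 and 51.5 CPM in control ST-HSCs. Its groups also overlapped, and its averaged change of 0.23 ± 0.09 had an unadjusted p of 0.026 and an adjusted p of 0.094. With relative log expression factors Ern1 was called higher (0.30, adjusted p = 0.036), as it was by DESeq2 (adjusted p = 0.01), without a filter (adjusted p = 0.0058), with a minimum mean of 5 CPM (adjusted p = 0.014) and without NR LT-HSC sample 2 (0.34, adjusted p = 0.013). Xbp1 had 148, 174 and 143 CPM in NR LT-HSCs, against 173, 182 and 167 CPM in control LT-HSCs, and 175, 196 and 179 CPM in NR ST-HSCs, against 191, 178 and 183 CPM in control ST-HSCs. The NR and control samples overlapped in each cell type. Its change was -0.17 ± 0.08 in LT-HSCs (adjusted p = 0.23) and 0.00 ± 0.08 in ST-HSCs. Counts per gene do not separate the spliced from the unspliced Xbp1 mRNA, and the cleavage of ATF6 and the activity of IRE1 are not seen in RNA levels.

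All 4 genes of the entry pore and signal peptidase fell. Sec61b, a small subunit of the translocon, had 58.7, 65.2 and 59.0 CPM in NR LT-HSCs, against 82.1, 88.5 and 80.3 CPM in control LT-HSCs, and 66.4, 71.1 and 59.1 CPM in NR ST-HSCs, against 91.8, 95.2 and 92.6 CPM in control ST-HSCs. The groups were apart in both cell types, with an averaged change of -0.48 ± 0.05 (adjusted p = 4.2e-05). Sec61a1, the pore subunit, changed by -0.30 ± 0.05 (adjusted p = 0.00062), Ssr1, a translocon-associated protein, by -0.31 ± 0.04 (adjusted p = 0.00023), and Spcs2, a signal peptidase subunit, by -0.28 ± 0.06 (adjusted p = 0.003).

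**Figure D3:**
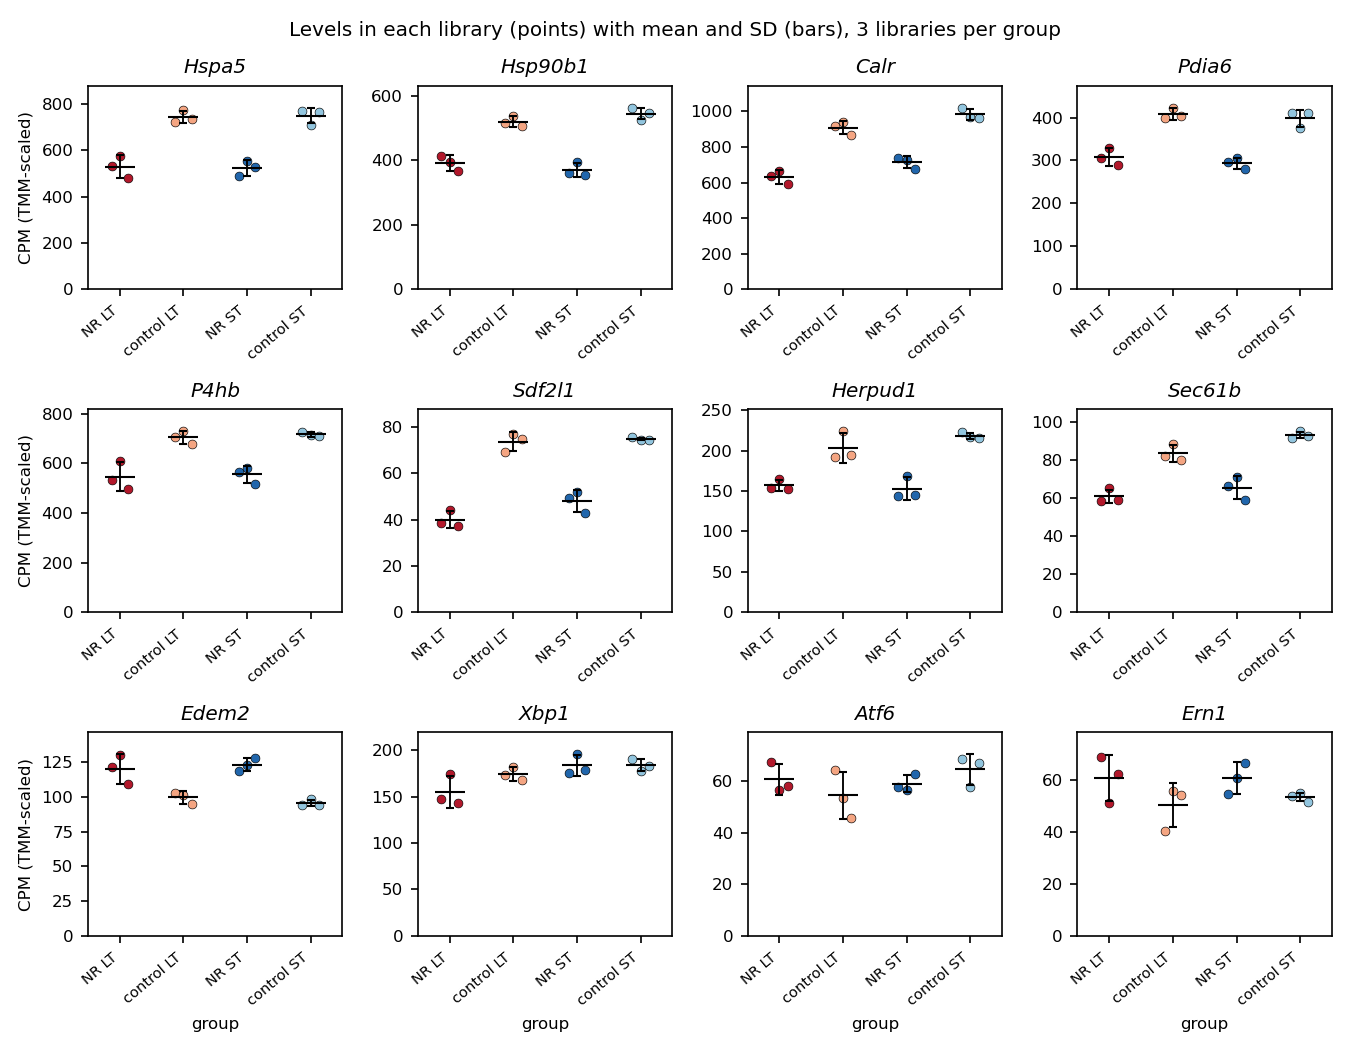
CPM of 12 genes in each library (points) with the mean and SD of the 3 libraries of a group (bars); each axis starts at 0. The NR points lie below the control points in both cell types for Hspa5, Hsp90b1, Calr, Pdia6, P4hb, Sdf2l1, Herpud1 and Sec61b, above them for Edem2, and among them for Xbp1, Atf6 and Ern1.

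Set beside the promoter sites shown above, 8 of the 11 genes with an ERSE or ERSE-II in the window were lower in the averaged comparison, with a median change of -0.42, where 16.1% of all genes and 28.6% of those with a mean of at least 5 CPM were lower. The 3 not called were Dnajc3, Syvn1 and Derl3, whose sites match the same letters as that of Hspa5. Of the 15 genes with a window and no match, 7 were lower and Edem2 was higher, with a median of -0.13. Sdf2l1, P4hb and Sec61b were among those 7. For the 6 genes with no window (Atf6, Derl1, Hyou1, Manf, Sec61a1 and Sil1), 3 were lower. An exact ERSE also stood in windows of 13 tested genes outside the 32. Of these, 2 were lower with NR, Hnrnpa3 (-0.31 ± 0.05) and Pan2 (-0.33 ± 0.09), and 0 were higher, a share near that of all genes, with a median change of -0.02. Most of the 13 had a mean under 5 CPM, such as Xlr3a (0.82) and Acnat2 (0.18), where few genes were called. The share therefore says little about abundant genes with an ERSE. Above 5 CPM, Alg12 (-0.24, adjusted p = 0.054), Adcy3 (0.17) and Acacb (0.13) were not called by edgeR. These counts describe the genes and were not tested.

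The change with NR in ST-HSCs minus that in LT-HSCs was tested as an interaction. No gene of the 32 differed, at an adjusted p under 0.05 or at an unadjusted p under 0.05 by edgeR, nor at an adjusted p by DESeq2. Over all genes tested, 0.0101% were called higher and 0% lower. The estimates ran from -0.29 for Atf6 to 1.02 for Derl3, with an SE of 1.11 for Derl3. Sdf2l1, with -0.64 in ST-HSCs and -0.88 in LT-HSCs, differed by 0.24 ± 0.12 (adjusted p = 0.92). These standard errors leave room for differences between the cell types of the size of many of the changes themselves.

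LT-HSCs were also compared with ST-HSCs in each culture. In the main edgeR fit 0 of the 32 genes differed in control culture (3 at an unadjusted p under 0.05, 0 by DESeq2). Of all genes, 3.51% were higher and 1.50% lower in LT-HSCs there. With NR 0 differed as well (5 at an unadjusted p under 0.05), against 3.80% higher and 2.27% lower among all genes. Here the choice of fit mattered. DESeq2 called Pdia4, Derl1, Sdf2l1, Calr and Xbp1 lower in NR LT-HSCs than in NR ST-HSCs, and with the sample number as a block edgeR called Pdia4 (-0.28, adjusted p = 0.02), Calr (-0.18, adjusted p = 0.036) and Xbp1 (-0.25, adjusted p = 0.036). Without the block these had changes of -0.27 ± 0.09, -0.18 ± 0.06 and -0.24 ± 0.08, with adjusted p-values of 0.095, 0.093 and 0.096. Xbp1 had 143 to 174 CPM in NR LT-HSCs, against 175 to 196 CPM in NR ST-HSCs, so these groups lay side by side without overlap. For 5 genes the NR LT-HSC samples were all below the NR ST-HSC samples, where 7.59% of all genes were, and for 0 genes all above them, where 9.96% were. In control culture 8 genes were all lower, against 12.4% of all genes, and Creld2 was all higher, against 12.4%. The block also added Pdia4 (-0.29 and -0.22) and Dnajb11 (-0.26 and -0.30) to the genes lower with NR in LT-HSCs and in ST-HSCs.

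The wider ER machinery was followed with 104 other genes in 7 lists. Averaged over both cell types, 37 were lower with NR and 7 higher, with a median of -0.11. Over all genes 16.1% were lower and 7.88% higher, and from a mean of 5 CPM upwards 28.6% were lower and 12.7% higher, so the 104 genes together lay near the more abundant genes. In LT-HSCs 19 were lower and 0 higher, where 7.58% and 2.38% of all genes were. In ST-HSCs 25 were lower and 3 higher, where 11.1% and 5.82% were. From a mean of 5 CPM upwards these shares were 13.995% and 4.21% in LT-HSCs, and 19.96% and 9.60% in ST-HSCs. Of the 19 calls in LT-HSCs, 10 were left without NR LT-HSC sample 2 and likewise 10 without control LT-HSC sample 2. Of the 28 in ST-HSCs, 17 were left without NR ST-HSC sample 3. Without the 2 libraries rich in unannotated reads, 27 of the 44 averaged calls were left. Of 14 genes of the oligosaccharyltransferase, which transfers glycans to entering proteins, and of glycan trimming, 10 were lower, among them Rpn1 (-0.44 ± 0.04, adjusted p = 1.5e-05), Rpn2 (-0.37 ± 0.04) and Magt1 (-0.40 ± 0.05). Of 19 further translocon, signal recognition and peptidase genes 7 were lower, with Spcs3 (-0.42 ± 0.04, adjusted p = 1.6e-05), Ssr4 (-0.47 ± 0.07) and Ssr2 (-0.28 ± 0.07) in front. Of 22 other folding factors 8 were lower and 3 higher. The lower ones included the calcium-binding protein gene Rcn1 (-0.34 ± 0.04), the prolyl isomerase gene Fkbp11 (-0.83 ± 0.11, adjusted p = 0.0001) and Cnpy2 (-0.36 ± 0.05).

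Among 14 other disulfide genes 4 were lower and 1 higher, and Pdia5 moved most clearly (-0.66 ± 0.07, adjusted p = 1.7e-05). The peroxiredoxin gene Prdx4, which also oxidises isomerases, stood higher in LT-HSCs than in ST-HSCs, by 0.68 ± 0.09 without NR and 0.75 ± 0.09 with it. Among 21 other degradation genes 3 were lower and 1 higher, the ubiquitin ligase gene Rnf139 (0.44 ± 0.12, adjusted p = 0.014). The share lower was near that of all genes (16.1%) and below that of genes with a mean of at least 5 CPM (28.6%). Within 6 other sensor and protease genes, Mbtps1, encoding the site-1 protease that cleaves ATF6, was lower (-0.22 ± 0.05, adjusted p = 0.006), a call lost without NR LT-HSC sample 2 (-0.18, adjusted p = 0.079) or NR ST-HSC sample 3 (-0.16, adjusted p = 0.08), and the transcription factor gene Creb3 was higher (0.31 ± 0.07, adjusted p = 0.0078). The PERK gene Eif2ak3 was not called (0.19 ± 0.12, adjusted p = 0.32). Of 8 genes listed with the PERK branch, 4 were lower and 1 higher, where 16.1% and 7.88% of all genes were. Trib3, a pseudokinase gene induced by ATF4, had 11.2, 13.2 and 11.4 CPM in NR LT-HSCs, against 22.5, 20.8 and 19.6 CPM in control LT-HSCs, and 7.11, 5.55 and 6.16 CPM in NR ST-HSCs, against 17.9, 17.1 and 18.5 CPM in control ST-HSCs. These groups were far apart, with an averaged change of -1.16 ± 0.08 (adjusted p = 1e-06). Atf4 changed by -0.48 ± 0.06 (adjusted p = 6e-05) and Eif2s1, encoding the translation factor that PERK phosphorylates, by -0.40 ± 0.05 (adjusted p = 6.6e-05). Ddit3, encoding CHOP, gave -0.05 ± 0.10 and was not called.

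**Figure D4:**
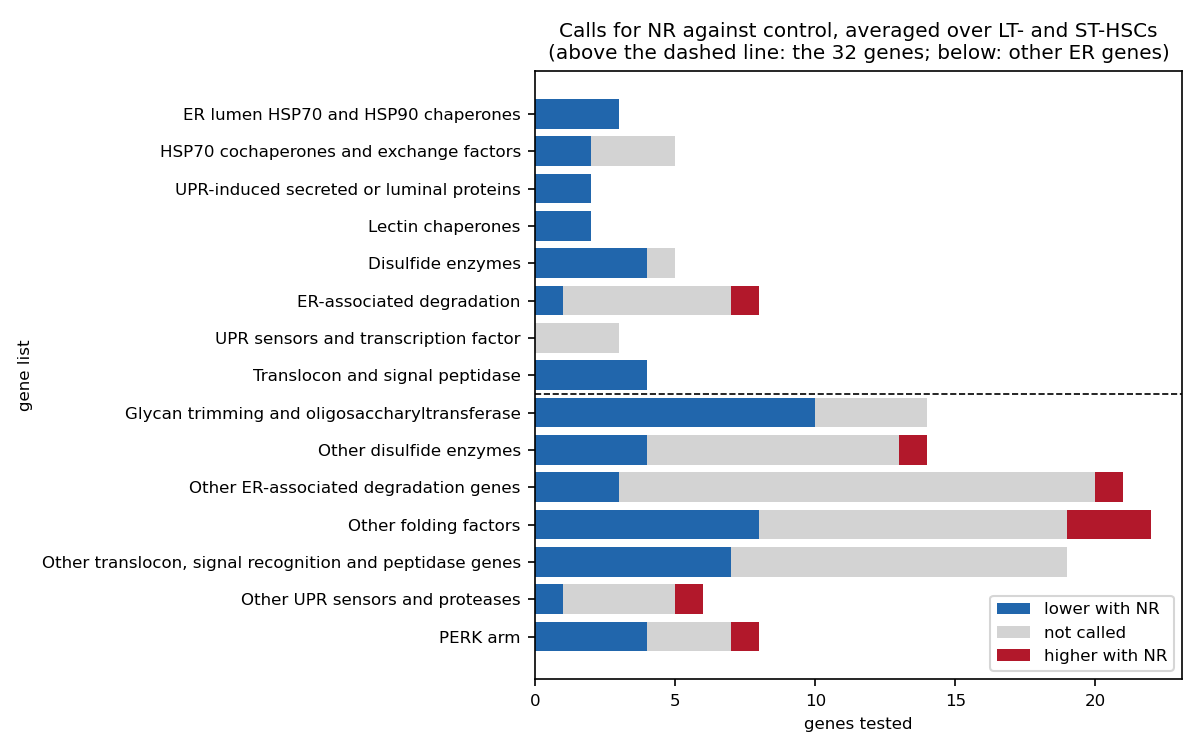
Number of genes called lower with NR (blue), not called (grey) and called higher (red) in the averaged comparison, for the roles of the 32 genes (above the dashed line) and for 7 lists of other ER genes (below it). All genes of the HSP70 and HSP90, lectin, stress-induced and translocon roles are blue, and the sensor role is all grey.

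Levels between genes were compared as CPM per kilobase of exon, with exon lengths from GENCODE M21. The length took in all annotated exons of a gene, so it can exceed that of the mRNA present and lower the value. Calr had the highest level in each group, with 219 CPM per kilobase in NR LT-HSCs, against 315 in control LT-HSCs, and 248 in NR ST-HSCs, against 341 in control ST-HSCs. Pdia3, P4hb, Canx, Hspa5 and Hsp90b1 held the next 5 places in each group. The order of Pdia3 and P4hb was not resolved. Pdia3 had 199 and P4hb 191 CPM per kilobase in NR LT-HSCs, and in control ST-HSCs P4hb had 251 and Pdia3 241. At the other end stood Derl3, with 0.12 to 0.36 CPM per kilobase. Atf6, with 5.91 to 7.0, came next to last except in control ST-HSCs, where Ern1 stood below it (6.53). The order of the highest genes was therefore alike in NR and control culture, while the levels themselves were lower with NR.

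For 10 of the 32 genes, exons share bases with another gene in GENCODE M21, among them the called genes Hsp90b1, Manf, Pdia3, Pdia4, Pdia6 and Sec61a1. Some partners lie on the same strand, as for Hsp90b1, Manf and Pdia4, and others on the opposite strand. The strand setting of the counting is not given in the sources used here. Whether reads in the shared bases went to the named gene, to its partner or to the ambiguous reads therefore cannot be told.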

How the data were processed

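RNA of 12 samples in 4 groups was measured; per the labels' protocols, libraries were made from 2.5 ng RNA with SMART-seq v4 and Nextera XT. The deposited values are raw read counts per Ensembl gene, made by the authors with FastQC 0.11.2, STAR 2.5.0b and HTSeq 0.6.1, per the submitters' processing notes. What build, annotation, strand setting and read filters they used is not given in the sources used here. Reads in no feature (8.69% to 28.5%) and ambiguous reads (3.30% to 4.38%) entered neither library sizes nor tests. Columns not used numbered 0. Symbols came from GENCODE M21, which named 53274 of 53465 identifiers.

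The members and lists were chosen with earlier results of these data known. Tests were two-sided and used edgeR 4.0.16 in R 4.3.3 (quasi-likelihood, TMM factors, 4 group means, 8 residual degrees of freedom, filterByExpr with a minimum count of 10 and a minimum total of 15), with Benjamini-Hochberg adjustment over 19830 genes. The biological coefficient of variation was 0.402. Replicates were checked for duplicates, and none were found (chi-square per degree of freedom 6.30 to 37.2). The fit was tested on simulated data. Alternatives were relative log expression factors, DESeq2 1.42.0, no filter, a minimum mean of 5 CPM, the sample number as a block, the share of reads in no feature as a covariate, leaving out the 2 libraries above 20% of such reads, and leaving out each library in turn.

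The sample numbers come from the titles. Deviations from the group means correlated between same-numbered NR and control LT-HSC samples (0.25 to 0.71) and NR LT-HSC and NR ST-HSC samples (0.15 to 0.84). NR and control ST-HSC samples gave -0.061 to 0.67 and control LT-HSC and ST-HSC samples -0.23 to 0.43. In each of these comparisons the lowest value was that of sample number 2. Differently numbered samples were not compared, so whether same-numbered samples were related cannot be told from these values. The main fit used no pairing in any comparison, so its standard errors and p-values treat the samples as unpaired. Only the alternative with the sample number as a block took the numbers into account.

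By the rule for named genes, values in every sample were given for the 8 members with the smallest p in the averaged comparison, for Atf6, Ern1, Xbp1 and Hspa5, and up to 3 genes were named from each other list. Edem2, the sample values of Trib3, and Hnrnpa3 and Pan2 were added after their values were seen.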

Additional observations from a re-analysis of the deposited data

How the results depend on the processing

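Of the counts of the 32 genes, no setting reversed a direction. For NR against control in LT-HSCs, 9 genes were called lower without a filter on low counts, and leaving out each library in turn gave 0 to 1 higher. In ST-HSCs, leaving out a library gave 9 to 16 lower, with 9 without NR ST-HSC sample 3. Averaged over both, 2 genes were called higher with relative log expression factors, DESeq2, no filter or without the 2 libraries with many reads in no feature, 3 with a minimum mean of 5 CPM, and 1 to 2 when a library was left out. The genes added were Ern1, Dnajb9 and Derl2. In control culture, 3 genes of LT-HSCs set against ST-HSCs were lower with a minimum mean of 5 CPM and 1 with the covariate. With NR, 3 were lower with relative log expression factors, 5 with DESeq2, 5 with a minimum mean of 5 CPM, 4 with the covariate, 3 with the replicate block, and 0 to 2 when a library was left out. With the replicate block 17 genes were lower in LT-HSCs, 17 in ST-HSCs and 18 on average, and it ended no call. The causes were not tested. Of single genes called with NR, 9 of 16 in LT-HSCs, 10 of 16 in ST-HSCs and 16 of the 19 averaged ones stood in all 19 settings; Spcs2 lost its call in 12 settings in LT-HSCs, as did Sec61a1, and in 13 in ST-HSCs. At the depth of these libraries only Derl3 had too few counts to be compared.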
